A study of Mus musculus with 12 samples.

Results

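The genes described here are 8 genes of heme breakdown, nitric oxide synthesis and the antioxidant response: Hmox1, Nos2, Nqo1, Gclm, Gclc, Srxn1, Txnrd1 and Slc7a11. They were taken as the probe sets that name one of these symbols and no other, which gave 137 probe sets out of 318760 with a single symbol, and 8 genes out of 22296. Mouse bone marrow cells in culture were profiled on 12 exon arrays, which read each gene through several short probe sets, in 3 conditions of 4 arrays each, with 2 arrays after 3 weeks and 2 after 4 weeks of culture. All cells came from female C57B/6 mice, 12 weeks old and treated with 5-FU, a drug that kills dividing marrow cells, and all carried a Hoxa9 vector (an MSCV retroviral construct, with GFP). They grew in DMEM with 15% FCS and the cytokines IL3, SCF and IL6. The second vector carried Meis1 (HOXA9+MEIS1), Meis1 with its homeodomain deleted (MEIS1dHD in the labels, HOXA9+MDHD here) or nothing (HOXA9+MIY, the empty vector). Hoxa9 and Meis1 are homeobox genes that act together in acute myeloid leukaemia, and the homeodomain is the part of Meis1 that binds DNA. The labels speak of 4 independent experiments per condition and do not say whether the arrays of week 4 and week 3 came from the same cultures. The vectors drive expression in every transduced cell of a mixed marrow culture, so each value is an average over several cell types, and fewer cells of a type and less RNA per cell cannot be told apart.

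Cells meet oxidants and electrophiles with a set of genes under the transcription factor NRF2, the product of Nfe2l2, which KEAP1 marks for degradation until oxidants free it. NRF2 pairs with small MAF proteins at antioxidant response elements, sites that the heme-sensing repressor BACH1 can occupy in its place. In macrophages, Hmox1 is induced by heme and by inflammatory signals, and Nos2 is the enzyme through which activated mouse macrophages make nitric oxide. Hmox1 encodes heme oxygenase 1, which splits heme into biliverdin, carbon monoxide and iron.

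Promoter sequences from RefSeq (GRCm38.p6) were at hand for 5 of the 8 genes, Nqo1, Gclm, Srxn1, Txnrd1 (3 starts) and Slc7a11. Each covers 250 bases before an annotated start and 50 bases from it. The 3 that hold the core letters of the antioxidant response element, TGACNNNGC on either strand, are printed because NRF2 acts on its targets through such elements. Capitals mark the element, which in all 3 lies on the strand opposite to the gene and so reads as its reverse complement, and, in Srxn1, the AP-1 letters TGANTCA. The windows are chr3:122245307-122245606 (plus strand) for Gclm, chr2:152105274-152105573 (plus strand) for Srxn1 and chr10:82858956-82859255 (plus strand) for the second start of Txnrd1.
Gclm: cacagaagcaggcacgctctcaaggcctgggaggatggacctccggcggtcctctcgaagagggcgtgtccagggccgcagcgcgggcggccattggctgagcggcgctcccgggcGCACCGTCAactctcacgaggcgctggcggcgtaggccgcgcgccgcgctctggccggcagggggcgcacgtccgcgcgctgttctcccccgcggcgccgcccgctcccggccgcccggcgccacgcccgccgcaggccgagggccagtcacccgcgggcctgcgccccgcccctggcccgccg
Srxn1: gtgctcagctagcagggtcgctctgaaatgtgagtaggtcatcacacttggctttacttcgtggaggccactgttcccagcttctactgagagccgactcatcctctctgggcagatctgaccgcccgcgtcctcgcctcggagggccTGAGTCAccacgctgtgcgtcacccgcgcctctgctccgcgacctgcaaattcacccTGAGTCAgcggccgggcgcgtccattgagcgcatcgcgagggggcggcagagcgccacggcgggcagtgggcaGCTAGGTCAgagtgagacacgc
Txnrd1, second start: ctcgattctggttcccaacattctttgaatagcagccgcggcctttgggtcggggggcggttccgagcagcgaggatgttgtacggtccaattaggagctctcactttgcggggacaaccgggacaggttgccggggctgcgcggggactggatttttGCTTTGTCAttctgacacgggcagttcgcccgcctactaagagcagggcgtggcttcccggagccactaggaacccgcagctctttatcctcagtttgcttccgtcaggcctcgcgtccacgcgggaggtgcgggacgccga
Counted from the start as base 1, the element began at -134 in Gclm, at -92 in Txnrd1 and at 29 in Srxn1. Srxn1 held the AP-1 letters at -102 and -45, with no overlap with the TGACNNNGC letters at 29. Only these exact letters were searched for as the element, so variants of it were not counted. Of all 32851 promoters of the same length, 12.4% held TGACNNNGC and 7.81% held TGANTCA. The Meis core TGACAG was found in 1 member promoter, that of Slc7a11, and in 19.2% of all, and the Hox and Pbx letters TGATTNAT were found in none of the 7 member promoters and in 3.22% of all. These are matches of letters in one window, not binding sites. The 3 printed genes behaved differently over the weeks in culture, as follows.

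All 8 genes had a value, built from 130 probe sets above the dim level (a mean log2 value over the 12 arrays of more than 6.26, set at the middle of the table's values). The other 7 probe sets, 3 of Nqo1, 2 of Slc7a11 and 1 each of Nos2 and Txnrd1, lay below it. The 8 genes were chosen by values measured on these same 12 arrays, and which contrast was used is not recorded. Their differences between conditions and between weeks are therefore descriptions, given without a p for each gene. Counts of members under a threshold, and the p given for changes of a condition effect between the weeks, rest on the same arrays. They are descriptions too. A gene was called where its Benjamini-Hochberg adjusted p over 20711 genes was under 0.05 in a limma fit with condition and week as terms. The number of called members is set beside the share called over all genes. The Meis1 transcript itself lay log2 2.88 ± 0.117 (SE) above the empty vector in HOXA9+MEIS1 and 2.60 ± 0.117 above it in HOXA9+MDHD, and Hoxa9 was not called in any comparison. Markers of macrophages, late neutrophils and stem and progenitor cells had values in all conditions. So did markers of erythroid cells, mast cells, eosinophils and stroma. The filter sets a floor under such values, so they do not by themselves show which cells were present. Array medians over all probe sets of the table lay between 6.258 and 6.301, and precision is limited by how few arrays there are.

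Nos2 and Hmox1 were far higher at week 4 than at week 3 in all 3 conditions, by 5.74-fold and 3.35-fold. Gclm, a subunit of the enzyme that starts glutathione synthesis, was 1.26-fold higher, whereas Txnrd1, Srxn1 and Gclc were 1.53-fold, 1.27-fold and 1.18-fold lower. Of the 8 genes 6 were called between the weeks, 3 higher and 3 lower, against 39.8% of all genes, of which 11.7% were called higher and 28.1% lower. The median week difference was log2 -0.18 over the 8 genes and -0.02 over all genes.

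**Figure D1:**
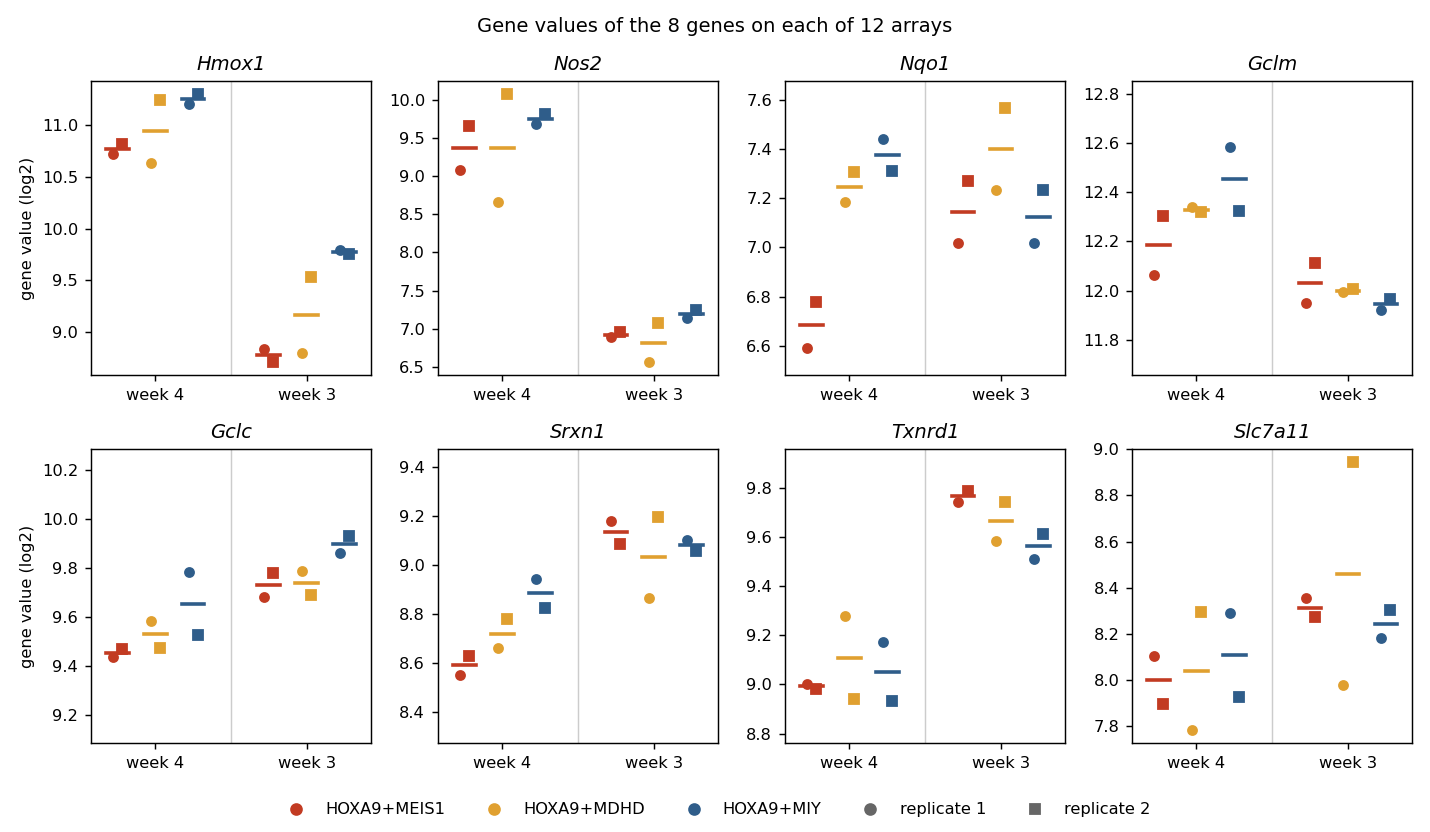
Log2 gene values (y, a scale of its own in each panel) of the 8 genes on the 12 arrays, by week and condition (x). Circles and squares are replicates 1 and 2, and bars are the mean of 2 arrays. Every week 4 value of Hmox1 and Nos2 lies above every week 3 value, and every week 4 value of Txnrd1 lies below.

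Nos2 had the widest spread of the 8. It stood at 9.08 and 9.66 in HOXA9+MEIS1 at week 4, against 6.89 and 6.95 at week 3. In HOXA9+MDHD it stood at 8.66 and 10.07 at week 4, against 6.56 and 7.07 at week 3. In HOXA9+MIY the values were 9.69 and 9.82 at week 4, against 7.14 and 7.24 at week 3. The weeks did not overlap: the lowest week 4 array, at 8.66, was above the highest week 3 array, at 7.24. The difference between the weeks was log2 2.52 ± 0.193 (SE), and within the conditions it was 2.45 in HOXA9+MEIS1, 2.55 in HOXA9+MDHD and 2.56 in HOXA9+MIY. The range of Nos2 over the 12 arrays, log2 3.51, was wider than that of 99.8% of all genes.

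Each of the 29 Nos2 probe sets was higher at week 4 and was called, against 30.6% of all single probe sets called in either direction and 7.46% called higher. Among the 28 above the dim level the difference ran between log2 0.72 and 4.30. In 8 of them the week 3 mean lay below 6.26, so that the size of the change is uncertain there. The 20 that stood above it at both weeks had a median difference of 2.28. The transcript was thus read as higher along all of its probe sets, though by unequal amounts.

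Hmox1 followed Nos2 closely. It stood at 10.72 and 10.81 in HOXA9+MEIS1 at week 4, against 8.84 and 8.71 at week 3. HOXA9+MDHD arrays gave 10.63 and 11.24 at week 4, against 8.80 and 9.53 at week 3. HOXA9+MIY arrays gave 11.20 and 11.29 at week 4, against 9.79 and 9.75 at week 3. Again all 6 week 4 arrays were above all 6 week 3 arrays, a separation in this direction found for 4.13% of all genes. The week difference was log2 1.74 ± 0.133, with 1.99 in HOXA9+MEIS1, 1.77 in HOXA9+MDHD and 1.47 in HOXA9+MIY. All 10 Hmox1 probe sets were higher at week 4 and called, by log2 0.63 to 1.99. In 1 of them the week 3 mean lay below 6.26, and the 9 above it at both weeks had a median difference of 1.75. Over the 12 arrays the Pearson correlation of Hmox1 with Nos2 was 0.957 (n = 12 arrays, which share the step between the weeks). It was 0.691 for what was left after condition and week were taken out, a value that leans on the HOXA9+MDHD arrays. There replicate 2 lay above replicate 1 by log2 0.731 at week 3 and 0.612 at week 4 in Hmox1, and by 0.505 and 1.4 in Nos2. In the other conditions the widest gap between replicates was 0.127 in Hmox1 and 0.58 in Nos2, either way.

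The 2 subunits of glutamate-cysteine ligase moved apart. Gclm, the modifier subunit, ran between 12.07 and 12.59 at week 4 with a median of 12.32, against 11.92 to 12.11 with a median of 11.98 at week 3. The groups overlapped through one HOXA9+MEIS1 array of each week. Its difference was log2 0.33 ± 0.066, and all 7 of its probe sets were called higher, by 0.25 to 0.39. Gclc, the catalytic subunit, ran between 9.44 and 9.78 at week 4 with a median of 9.50, against 9.68 to 9.93 with a median of 9.78 at week 3. A single array, HOXA9+MIY replicate 1 of week 4, kept the weeks from separating. The Gclc difference was log2 -0.24 ± 0.052, with 11 of 19 probe sets called lower.

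Txnrd1, the cytosolic thioredoxin reductase, which keeps thioredoxin reduced, was lower at week 4 on every array. It ran between 8.93 and 9.28 with a median of 8.99 at week 4, against 9.51 to 9.79 with a median of 9.68 at week 3. The difference was log2 -0.61 ± 0.072, and such a separation was seen for 17.9% of all genes. Of its 30 probe sets 24 were called lower, against 23.2% of all single probe sets, and 1 was called higher, by log2 0.42. Positions of the probe sets along the gene were not used here, so the odd one is not placed on a transcript. Across the 12 arrays Txnrd1 ran against Nos2 (r = -0.95) and Hmox1 (r = -0.924), descriptions that rest on the same step between the weeks.

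Srxn1, which restores over-oxidised peroxiredoxins, ran between 8.55 and 8.94 with a median of 8.72 at week 4, against 8.87 to 9.20 with a median of 9.09 at week 3. The difference was log2 -0.35 ± 0.071, with 6 of 10 probe sets called lower and 0 higher. The weeks overlapped through HOXA9+MIY replicate 1 of week 4 and HOXA9+MDHD replicate 1 of week 3. Of the 3 genes whose promoters are printed above, Gclm was called higher and Srxn1 and Txnrd1 lower.

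Slc7a11, the transport subunit of the cystine and glutamate exchanger, and Nqo1, a quinone reductase, were not called between the weeks. Slc7a11 ran between 7.78 and 8.29 with a median of 8.02 at week 4, against 7.98 to 8.94 with a median of 8.29 at week 3. Its difference was log2 -0.29 ± 0.147, all 22 of its probe sets were lower and 6 were called. Nqo1 ran between 6.59 and 7.44 with a median of 7.25 at week 4, against 7.02 to 7.57 with a median of 7.23 at week 3. Its difference was log2 -0.12 ± 0.113, with 1 of 10 probe sets called. Both genes overlapped widely between the weeks.

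**Figure D2:**
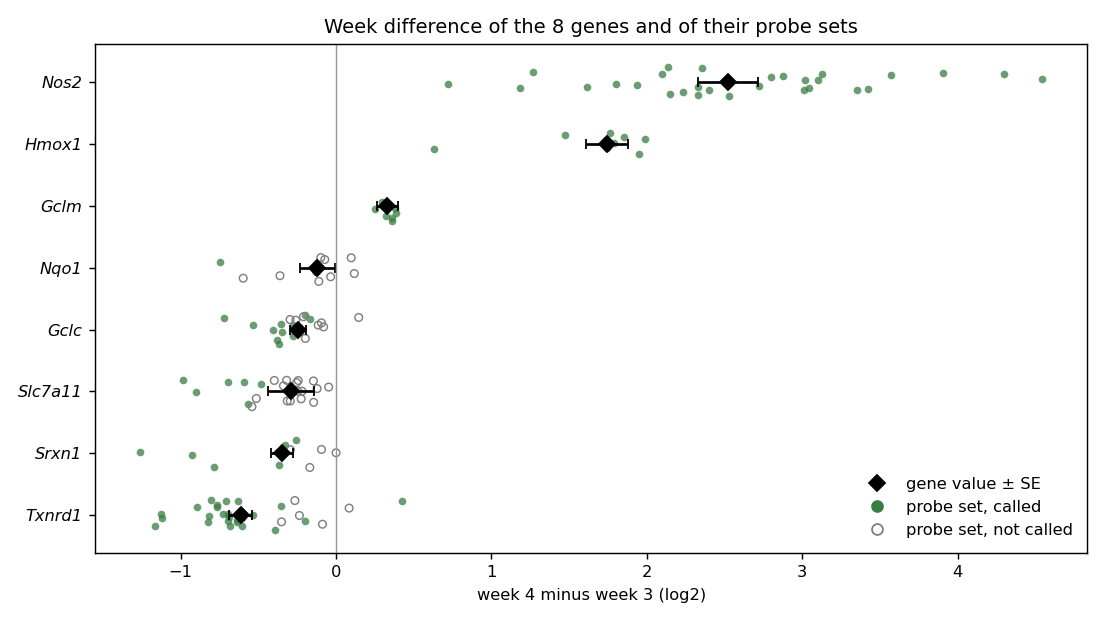
Week 4 minus week 3 difference (x, log2) of each of the 137 probe sets, in a row per gene. Filled points are called, open points are not called, and black diamonds are the gene values ± SE. All 29 points of Nos2 and all 10 of Hmox1 lie to the right of 0, and 28 of 30 points of Txnrd1 lie to the left.

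The scaling of the arrays bears on the size of these differences. Each array was also centred on the median of its probe sets that name a single symbol and lie above the dim level. This setting is called the arrays centred below. The week difference of all genes then moved up by a median of log2 0.16. Of the called genes 68% were higher at week 4, against 29.5% with the values as deposited. The differences became 2.68 for Nos2, 1.90 for Hmox1 and 0.49 for Gclm, which stayed called. They became -0.45 for Txnrd1 and -0.19 for Srxn1, also called, and -0.09 for Gclc, which was no longer called.

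Some markers of other cells were called between the weeks as well. Late neutrophil markers were called higher at week 4 for 5 of 10 and lower for 0. Mast cell markers were called lower for 4 of 7 and higher for 0. Macrophage markers were called higher for 2 of 12 and lower for 0. Beside these counts, 11.7% of all genes were called higher and 28.1% lower. With the arrays centred the late neutrophil markers gave 7 higher and 0 lower and the mast cell markers 1 higher and 4 lower. The macrophage markers then gave 4 higher and 0 lower, beside 7948 higher and 3736 lower of all 20711 genes. The mean log2 level of the 12 macrophage markers was 8.43 and 8.54 at week 4 and 8.40 and 8.38 at week 3 in HOXA9+MEIS1, where Nos2 was 5.46-fold and Hmox1 3.97-fold higher at week 4. That of the 10 late neutrophil markers was 8.00 and 8.41 at week 4 and 8.21 and 8.24 at week 3 in the same condition. In HOXA9+MEIS1 the late neutrophil means of the weeks overlapped, and both macrophage means of week 4 lay slightly above both of week 3. In HOXA9+MIY the macrophage means ran the other way, 9.68 and 9.72 at week 4 and 9.79 and 9.76 at week 3, where Nos2 was 5.90-fold and Hmox1 2.78-fold higher at week 4. In HOXA9+MDHD they were 9.15 and 9.70 at week 4 and 9.09 and 9.27 at week 3 and overlapped, with Nos2 5.86-fold and Hmox1 3.41-fold higher. In HOXA9+MIY the late neutrophil mean was 10.86 and 10.60 at week 4 and 9.97 and 10.17 at week 3, and in HOXA9+MDHD it was 9.59 and 10.29 at week 4 and 8.98 and 8.45 at week 3. The part of these cells in the differences of the 8 genes was not tested.

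The genes most like Hmox1 over the 12 arrays, among 15300 genes with a given name (no gene models, clone names or small RNAs) and at least 2 probe sets above the dim level, were Map3k1 (r = 0.970), Grina (0.969), Ppard (0.969), Il15 (0.967) and Ndrg1 (0.966). Those most like Nos2 were Ndrg1 (0.976), Sfi1 (0.975), Plp2 (0.972), Cdkn1a (0.969) and Map3k1 (0.969). Ndrg1 and Map3k1 stood on both lists. Each r is over 12 arrays that fall into 2 weeks, so a high value says mainly that a gene stepped in the same direction between them.

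Between HOXA9+MEIS1 and HOXA9+MIY, the comparison that asks what Meis1 adds to Hoxa9, Hmox1 was the only one of the 8 genes called. It was 1.67-fold lower with Meis1, by log2 -0.74 ± 0.163. This is 1 member of 8 against 10.8% of all genes (5.29% called higher and 5.56% lower). At week 4 the HOXA9+MEIS1 arrays stood at 10.72 and 10.81, against 11.20 and 11.29 in HOXA9+MIY. At week 3 they stood at 8.84 and 8.71, against 9.79 and 9.75. The conditions did not overlap within either week, and the difference was -0.48 ± 0.224 at week 4 and -0.997 ± 0.224 at week 3. All 10 Hmox1 probe sets were lower in HOXA9+MEIS1, by 0.27 to 1.08, and 7 were called, against 6.7% of all single probe sets called in either direction and 3.5% called lower. Without the week term the call was lost at the same difference, as it was in fits to the arrays of 1 week alone.

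Nos2 lay at log2 -0.32 ± 0.236 with Meis1 relative to the empty vector and was not called. Its arrays did not overlap within either week, and all 29 of its probe sets were lower, none of them called. Gclc behaved alike, with a difference of -0.18 ± 0.063, no overlap within either week, and 19 of 19 probe sets lower with 0 called. It was called in 2 settings, at -0.19 with the arrays centred and at -0.23 without HOXA9+MIY week 4 replicate 2. Hmox1, Nos2 and Gclc were thus the 3 of 8 members lower at both weeks without overlap, against 12% of all genes.

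Nqo1 arrays were set apart by condition at week 4 and overlapped at week 3, a contrast between the weeks that did not pass its test. The HOXA9+MEIS1 arrays stood at 6.59 and 6.78 at week 4, against 7.44 and 7.31 in HOXA9+MIY. At week 3 they stood at 7.02 and 7.27, against 7.02 and 7.23. The difference was log2 -0.69 ± 0.142 at week 4 and 0.02 ± 0.142 at week 3. In a fit to the week 4 arrays alone Nqo1 was the member that was called. In that fit 859 of all 20711 genes were called, 371 higher and 488 lower. The mean level of Nqo1 lay at percentile 23.7 of all genes. The median of its probe set means was 6.46, close to the dim level of 6.26, so the size of these differences is uncertain. The change of the effect between the weeks, log2 -0.71 ± 0.201, did not pass the limma interaction test over all genes (adjusted p = 0.551). Over both weeks Nqo1 was at -0.34 ± 0.138 and not called.

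The other 4 genes differed little between these conditions. Srxn1 was at log2 -0.12 ± 0.087, Gclm at -0.09 ± 0.081 and Slc7a11 at -0.02 ± 0.180, and Txnrd1 was at 0.07 ± 0.088. Gclm and Srxn1 were lower in HOXA9+MEIS1 at week 4 without overlap (-0.27 and -0.29) and overlapped at week 3 (0.09 and 0.05). Txnrd1 was higher without overlap at week 3 (0.20) and overlapped at week 4 (-0.06). How many of all genes were separated in only 1 week was not counted, so these are descriptions. None of the interactions of the 8 genes passed the test, with adjusted p of at least 0.551 in limma, in a fit where 0% of all genes were called and 1343 of 20711 had an unadjusted p under 0.05, 3 of the 8 members among them.

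**Figure D3:**
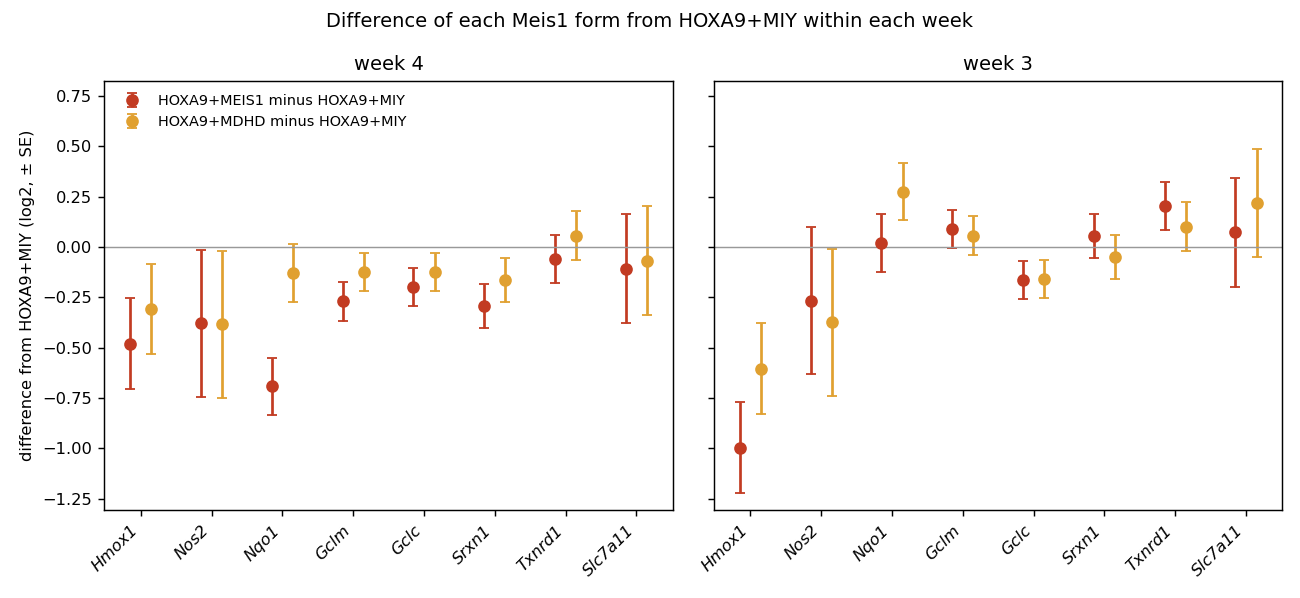
Difference (y, log2, ± SE) of HOXA9+MEIS1 and HOXA9+MDHD from HOXA9+MIY for the 8 genes (x), at week 4 and at week 3, with 2 arrays per condition and week. Hmox1 with full-length Meis1 lies at -0.48 at week 4 and -0.997 at week 3, and Nqo1 at -0.69 and 0.02.

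Markers of macrophages, late neutrophils and stem and progenitor cells differed between these conditions too. Over all genes 5.29% were called higher and 5.56% lower. Of the 12 macrophage markers 9 were called lower and 1 higher in HOXA9+MEIS1, and their mean log2 level ran between 8.38 and 8.54, against 9.68 to 9.79 in HOXA9+MIY. Of the 10 late neutrophil markers 9 were called lower and 0 higher, with means of 8.00 to 8.41, against 9.97 to 10.86. The macrophage genes Csf1r and Ctss were lower by log2 -2.99 ± 0.179 and -3.46 ± 0.180. Of the 9 stem and progenitor markers, Meis1 itself among them, 6 were called higher and 0 lower, with means of 10.11 to 10.35, against 8.87 to 9.01. The conditions did not overlap in any of the 3 list means. The part of these cells in the lower Hmox1 values was not tested.

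Meis1 without its homeodomain left all 8 genes uncalled against HOXA9+MIY, 0 of 8 beside 1.91% of all genes (0.908% higher and 1% lower). An unadjusted limma p under 0.05 was found for 2 of the 8, and for 2770 of all 20711 genes. Hmox1 was at log2 -0.46 ± 0.163 and Nos2 at -0.38 ± 0.236. The other 6 lay between -0.14 (Gclc) and 0.08 (Txnrd1). Of the 137 probe sets 93 were lower and 44 higher, and 0 were called, beside 1.22% of all single probe sets. No member was set apart from HOXA9+MIY in the same direction at both weeks, against 5.02% of all genes higher and 6.65% lower.

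The 2 HOXA9+MDHD arrays of a week stood far from each other in several of these genes. At week 4 Nos2 was at 8.66 on replicate 1 and 10.07 on replicate 2, and at week 3 at 6.56 and 7.07. Hmox1 was at 10.63 and 11.24 at week 4 and at 8.80 and 9.53 at week 3. Slc7a11 was at 7.78 and 8.29 at week 4 and at 7.98 and 8.94 at week 3. Replicate 2 was the higher array in these 3 genes at both weeks. The macrophage marker mean was also higher on replicate 2, at 9.15 and 9.70 at week 4 and 9.09 and 9.27 at week 3, whereas the late neutrophil mean was 9.59 and 10.29 at week 4 and 8.98 and 8.45 at week 3. The part of these cells in the spread was not tested.

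Full-length and homeodomain-deleted Meis1 were also set against each other, a comparison that asks what the homeodomain adds. Again 0 of 8 genes were called, beside 4.36% of all genes (2.24% higher and 2.11% lower). An unadjusted limma p under 0.05 was found for 1 of the 8, and for 3184 of all 20711 genes. Nqo1 had the largest difference, at log2 -0.41 ± 0.138, with -0.56 at week 4 and -0.26 at week 3. Hmox1 was at -0.28 ± 0.163, and the other 6 lay between -0.09 (Slc7a11) and 0.06 (Nos2). At week 4 the HOXA9+MEIS1 arrays of Nqo1, Gclm, Gclc and Srxn1 lay below both HOXA9+MDHD arrays, and at week 3 none of the 4 did. The share of all genes so separated in a single week was not counted, so nothing is read from this number. No member was separated in 1 direction at both weeks, against 6.74% of all genes higher and 5.46% lower. Of the 137 probe sets 93 were lower and 44 higher with full-length Meis1, and 0 were called, beside 2.78% of all single probe sets. The change between the weeks was tested for both comparisons with homeodomain-deleted Meis1 as well. In limma's interaction test 0% of all genes were called in either. The adjusted p of the 8 genes was 0.998 to 0.999 against HOXA9+MIY and 0.757 to 0.981 for full-length against homeodomain-deleted Meis1. In either, 0 of 8 had an unadjusted p under 0.05, against 997 and 1547 of all 20711 genes in the same order. The 3 comparisons share arrays, so their values are not independent of one another.

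The regulators of the pathway come first. The 8 pathway lists that follow were written with earlier results of these arrays known and leave the 8 members out. Their counts are set beside the shares of all genes called. Between the weeks 11.7% were called higher and 28.1% lower, or 7948 and 3736 of 20711 genes with the arrays centred. Against HOXA9+MIY the shares were 5.29% higher and 5.56% lower with full-length Meis1, and 0.908% and 1% with homeodomain-deleted Meis1. Nfe2l2 was at log2 -0.25 ± 0.080 in HOXA9+MEIS1 against HOXA9+MIY (limma, adjusted p = 0.0631), not called, and was called in 3 other settings at -0.22 to -0.26, and in the fits without HOXA9+MDHD replicate 2 of week 4 or of week 3. Keap1 was at -0.02 (adjusted p = 0.918) and Bach1 at -0.10 (adjusted p = 0.319), and 0 of the 12 regulators passed in that limma comparison. An unadjusted p under 0.05 was found for 2 of the 12, and for 4567 of all 20711 genes. Between the weeks 1 of 12 was higher and 5 lower at week 4, but 4 were higher and 2 lower with the arrays centred. Of the small MAF genes, Mafk was lower at -0.52 ± 0.059 (adjusted p = 1.71e-05), Maff was higher at 0.28 ± 0.073 (adjusted p = 0.00724) and Mafg was at -0.01 (adjusted p = 0.906). Nfe2l2 was at -0.02 (adjusted p = 0.822) and Keap1 at -0.12 (adjusted p = 0.100). Bach1 was called lower at -0.15 ± 0.043 (limma, adjusted p = 0.0154), but stood at 0.01 with the arrays centred. Genes named below for the week comparison were chosen after their values were seen.

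Of 23 other NRF2 target genes measured, 4 were higher and 7 lower at week 4 than at week 3 (median log2 0.01, all genes -0.02, with 11.7% of all genes called higher and 28.1% lower), against 12 higher and 4 lower with the arrays centred. With Meis1, 1 was higher and 6 lower than in HOXA9+MIY (median -0.13, all genes -0.01). The one that was higher was Me1, the cytosolic malic enzyme, which makes NADPH, at 3.47 ± 0.136 (adjusted p = 1.10e-07), or 1.63 on its brighter probe sets alone. Me1 was also the 1 called with homeodomain-deleted Meis1 (0.64 ± 0.136, adjusted p = 0.0350), a call lost on its brighter probe sets alone, at 0.17. Blvrb, a biliverdin reductase, was lower at -0.61 ± 0.107 (adjusted p = 0.00260), and Gsta4, a glutathione transferase, at -0.57 ± 0.128 (adjusted p = 0.0118).

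Heme and iron genes, the neighbours of Hmox1 in metabolism, gave 5 higher and 12 lower of 23 at week 4 (median log2 -0.29, all genes -0.02), and 5 higher and 11 lower with the arrays centred. Alas1, the first enzyme of heme synthesis, rose by 0.63 ± 0.085 (adjusted p = 7.17e-05), and Ppox, a late enzyme of the same path, by 0.49 ± 0.042 (adjusted p = 2.68e-06). On the same path Alad, Fech, Uros, Cpox and Urod were called lower, at -0.46, -0.34, -0.34, -0.31 and -0.28. The biliverdin reductases, which act on the product of heme oxygenase, went opposite ways, Blvrb at 0.52 ± 0.087 (adjusted p = 4.06e-04) and Blvra at -0.58 ± 0.091 (adjusted p = 2.34e-04). Hmox2, the second heme oxygenase, was lower at -0.29 ± 0.035 (adjusted p = 2.92e-05), and so was Tfrc, the transferrin receptor, at -0.62 ± 0.047 (adjusted p = 1.44e-06). Fth1, the ferritin heavy chain, was at 0.16 ± 0.056 (adjusted p = 0.0404).

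With Meis1, 8 heme and iron genes of 23 were lower than in HOXA9+MIY and 1 higher (median -0.12, all genes -0.01). Slc11a1, a metal transporter of macrophage phagosomes, was at -1.59 ± 0.188 (adjusted p = 1.58e-04), Hp, the haemoglobin scavenger haptoglobin, at -1.43 ± 0.354 (adjusted p = 0.0211) and Slc40a1, the iron exporter ferroportin, at -0.98 ± 0.262 (adjusted p = 0.0298). Of the 23 genes 1 was called with homeodomain-deleted Meis1, the heme transporter gene Slc48a1 at -0.21 ± 0.043 (adjusted p = 0.0312), which lost its call in 7 of 12 fits with 1 array left out (-0.23 to -0.17).

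Among arginine and nitric oxide genes, which supply or compete for the substrate of Nos2, 4 were higher and 7 lower of 16 at week 4 (median log2 0.06, all genes -0.02), against 9 higher and 7 lower with the arrays centred. Arg1, an arginase that draws on the same arginine, rose by 1.64 ± 0.315 (adjusted p = 0.00106), and the arginine importer gene Slc7a2 by 1.32 ± 0.252 (adjusted p = 9.64e-04), or by 0.59 on its brighter probe sets alone, still called. Another arginine importer gene, Slc7a1, fell by 0.95 on the log2 scale (SE 0.077, adjusted p = 1.98e-06). With Meis1 4 genes were lower and 2 higher. Arg1 was at -3.36 ± 0.385 (adjusted p = 1.25e-04) and Slc7a2 at -1.68 ± 0.308 (adjusted p = 0.00357). The Slc7a2 difference was -0.84 on the brighter probe sets, -2.62 with week 4 arrays alone and -0.73, not called, with week 3 arrays alone, and the call was also lost without the week term. Odc1, which starts polyamine synthesis, was higher at 0.61 ± 0.097 (adjusted p = 0.00136). With homeodomain-deleted Meis1 0 of 16 were called in the limma fit. An unadjusted p under 0.05 was found for 4 of the 16, and for 2770 of all 20711 genes.

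The list of genes of the signals that induce Nos2 also held Ptgs2, which encodes an enzyme and not such a signal. It gave 6 higher and 2 lower of 20 at week 4 (median log2 0.01, all genes -0.02), and 9 higher and 1 lower with the arrays centred. Irf1, a transcription factor of the interferon response, rose by 0.82 ± 0.103 (adjusted p = 4.18e-05), Ptgs2, cyclooxygenase 2, by 0.73 ± 0.153 (adjusted p = 0.00201) and Jak2, a kinase of cytokine receptors, by 0.54 ± 0.081 (adjusted p = 1.67e-04). The 2 called lower with the values as deposited were Myd88 at -0.42 ± 0.053 and Tlr4 at -0.21 ± 0.066. With Meis1, 6 were lower and 2 higher of 20 (median -0.12, all genes -0.01). Il1b, the cytokine interleukin 1 beta, was at -2.34 ± 0.385 (adjusted p = 0.00166) and Tlr2, a receptor for bacterial lipoproteins, at -1.28 ± 0.202 (adjusted p = 0.00124), whereas Ptgs2 was higher at 0.98 ± 0.188 (adjusted p = 0.00453).

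Glutathione genes gave 2 higher and 9 lower of 24 at week 4 (median log2 -0.08, all genes -0.02), against 9 higher and 9 lower with the arrays centred. Slc3a2, which forms the cystine exchanger with the product of Slc7a11, was lower at -0.27 ± 0.039 (adjusted p = 1.17e-04). With Meis1 2 of 24 were higher and 5 lower. Cth, which makes cysteine from cystathionine, was at -1.62 ± 0.226 (adjusted p = 5.01e-04), Mgst1, a microsomal glutathione transferase, at -1.13 ± 0.176 (adjusted p = 0.00106) and Gpx3, a glutathione peroxidase, at -0.89 ± 0.124 (adjusted p = 4.85e-04). With homeodomain-deleted Meis1 1 was higher and 2 lower, Cth at -1.21 ± 0.226 (adjusted p = 0.0200) and Mgst1 at -0.97 ± 0.176 (adjusted p = 0.0170).

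Thioredoxin and peroxiredoxin genes gave 4 higher and 10 lower of 17 at week 4 (median log2 -0.16, all genes -0.02), against 6 higher and 5 lower with the arrays centred. Among those higher were Sesn2, a stress-induced sestrin, at 0.83 ± 0.088 (adjusted p = 1.08e-05) and Txnip, which binds and inhibits thioredoxin, at 0.78 ± 0.137 (adjusted p = 5.14e-04). With Meis1 5 of 17 were higher and 1 lower, with Sesn3 at 0.64 ± 0.097 (adjusted p = 9.66e-04), Txnrd3, another thioredoxin reductase, at 0.49 ± 0.121 (adjusted p = 0.0219) and Sesn1 at 0.29 ± 0.054 (adjusted p = 0.00444). Superoxide dismutase, catalase and NADPH oxidase genes gave 2 higher and 4 lower of 14 at week 4 (median log2 -0.08, all genes -0.02). These counts are near the shares of all genes, 11.7% called higher and 28.1% lower. With the arrays centred the 14 genes gave 4 higher and 1 lower. With Meis1 they gave 1 higher and 6 lower (median -0.10, all genes -0.01), beside 5.29% and 5.56% of all genes. Cybb, the catalytic core of the phagocyte oxidase, was at -2.87 ± 0.172 (adjusted p = 1.01e-06) and the proton channel gene Hvcn1 at -0.91 ± 0.128 (adjusted p = 5.29e-04). Cybb, Arg1, Il1b, Tlr2, Slc11a1 and Hp are genes of macrophages or neutrophils, whose marker levels in the same arrays are given above. They were picked from the genes called lower with Meis1, and Ptgs2, listed with Il1b and Tlr2, was called higher at 0.98. The part of these cells in the differences was not tested.

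**Figure D4:**
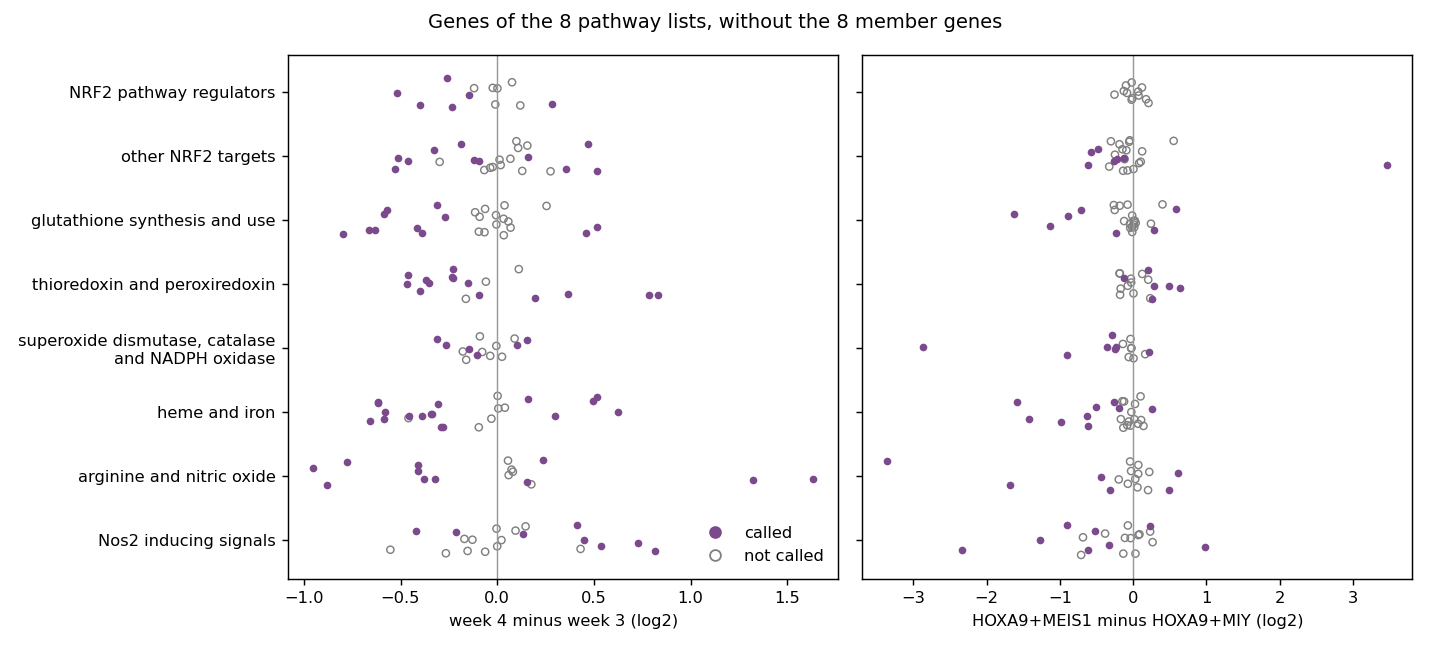
Log2 differences (x) of the genes of the 8 pathway lists (rows), week 4 minus week 3 at left and HOXA9+MEIS1 minus HOXA9+MIY at right, on scales of their own. Filled points are called and open points are not. The largest week difference is that of Arg1 at 1.64, and the Meis1 differences run between Arg1 at -3.36 and Me1 at 3.47.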

How the data were processed

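RNA of 12 samples was measured on Affymetrix mouse exon arrays, 1 array per sample. Per the submitters' processing notes, Affymetrix Expression Console and RMA were used (versions not given in the sources used here), and what the authors deposited is on a log2 scale, by probe set at exon level. The table held 1256831 probe sets, of which 318760 named 1 gene symbol, 6684 named several and 931387 named none and were not used. Symbols came from the platform's annotation, which can be old. Probe sets were kept above the 50th percentile of the mean over 12 arrays (log2 6.2592), and the kept ones of a gene were joined by median polish (at most 50 iterations, 29 genes without convergence), which gave 20711 genes.

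Groups came from the titles. A linear model with condition and week over all 12 arrays was estimated in R 4.3.3 with the limma package, version 3.58.1, through lmFit and a trended eBayes with two-sided tests, and a second model held their interaction. Adjusted p are Benjamini-Hochberg over all genes, called under 0.05. Single probe sets were fitted over all 318760. Errors after ± are limma standard errors. Python 3.11.15 with numpy 2.4.6 did the rest, and the steps were tested on simulated data. The members and all lists were chosen with earlier results of these data known. Named list genes were, per list, up to 3 called with full-length Meis1 and up to 2 with homeodomain-deleted Meis1, with the largest differences, and Nfe2l2, Keap1 and Bach1. For likeness, the 5 genes with the highest Pearson r were taken. Alternatives covered the filter, the summary, the scaling, the model terms, the block by replicate number and each array left out. Correlations of same-numbered arrays (deviations from group means) lay between -0.112 and 0.133 across conditions within a week. Across the weeks they were -0.0181 in HOXA9+MEIS1, 0.135 in HOXA9+MDHD and -0.0676 in HOXA9+MIY, so the numbers were not taken to pair arrays in either way. Because the number of arrays is small, it limits the precision, and p-values measure the spread between these samples.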

Additional observations from a re-analysis of the deposited data

Results flagged for a closer look

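Nqo1 went opposite ways between the weeks in 2 conditions. In HOXA9+MEIS1 it stood at 6.59 and 6.78 at week 4, against 7.02 and 7.27 at week 3. In HOXA9+MIY it stood at 7.44 and 7.31 at week 4, against 7.02 and 7.23 at week 3, so that every array of one condition was lower and every array of the other higher at week 4. The difference of the week effects was log2 -0.71 ± 0.201 on 7 probe sets above the dim level, with an adjusted p of 0.551 in limma's interaction test. The median of all Nqo1 probe set means, 6.46, lay close to the dim level of 6.26, so the size of this difference is uncertain. The cause was not tested.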

How the results depend on the processing

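Of 384 differences of the 8 genes under the alternatives, 373 kept their side of the threshold, 4 lost a call and 7 gained one. All 67 values of called differences kept their sign, whereas 22 of the 317 of differences that were not called changed it, the largest standing at log2 -0.20 afterwards. Of the fits that left out 1 array, the lowest and the highest value of each difference were counted here. In HOXA9+MEIS1 against HOXA9+MIY the number of called members was 1, but 2 with the arrays centred, 0 without the week term and 0 with week 3 arrays alone. It ran between 1 and 2 with 1 array left out, the 2 being Hmox1 and Gclc without HOXA9+MIY week 4 replicate 2. Hmox1 was called in all 12 such fits, at log2 -0.81 to -0.67. With the replicate number as a block, where the numbers are not known to pair arrays, 1 member was called in this comparison and 7 between the weeks, Slc7a11 being added at -0.29. The weeks gave 5 to 7 called members over all settings. Bach1 between the weeks turned to log2 0.0103 with the arrays centred. Over all genes, HOXA9+MEIS1 against HOXA9+MIY had 2246 calls, but 904 without the week term, 918 with week 3 arrays alone and 859 with week 4 arrays alone. HOXA9+MDHD against HOXA9+MIY had 396, but 37, 240 and 11 in the same settings, 162 with those 2 conditions alone and 140 to 989 with 1 array left out. HOXA9+MEIS1 against HOXA9+MDHD had 902, but 295, 393 and 226, and 540 with those 2 conditions alone. The interactions had 0, with up to 30 calls for HOXA9+MDHD against HOXA9+MIY and up to 36 for HOXA9+MEIS1 against HOXA9+MDHD with 1 array left out.

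Calls of some pathway genes rested on single arrays, given as the number of the 12 fits with 1 array left out that kept the call, and the range over them. With full-length Meis1, Txnrd3 kept its call in 9 (0.36 to 0.55), losing it without HOXA9+MEIS1 replicate 1 of either week or HOXA9+MIY replicate 2 of week 4. Hp kept its call in 9 (-1.58 to -1.28), losing it without HOXA9+MEIS1 replicate 1 of week 4 or either HOXA9+MIY array of week 4. Slc40a1 kept its call in 7 (-1.15 to -0.83) and lost it with the replicate block. With homeodomain-deleted Meis1, Me1 kept its call in 6 (0.55 to 0.75) and lost it with the block and the stricter filter (0.17), Cth kept it in 8 (-1.38 to -1.02) and Mgst1 in 8 (-1.13 to -0.77). Between the weeks Fth1 kept its call in 6 (0.13 to 0.18), and Keap1 gained one in 2 (-0.15 to -0.09). The cause of these changes was not tested. Dim probe sets and the number of arrays limit the rest.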
